A study of Homo sapiens with 12 samples.

Results

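The 4 libraries numbered replicate 2 of a 12-library RNA sequencing study were set against the other 8, numbered replicate 1 and replicate 3. They were chosen by the number in the sample labels alone, 1 library in each of 4 conditions, and each other number likewise holds 4 libraries. What the numbers mark is left unsaid in the labels, so the replicate number cannot be told apart from the culture, the day of the experiment or the batch of extraction, library preparation or sequencing.

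All 12 libraries came from wild-type Cal27 cells, a human cancer line of squamous origin in the tongue, grown in serum on collagen-coated polyacrylamide gels for 5 days of conditioning and 1 day after replating. For LPA-to-FAKi, conditioning was on soft gels of 0.48 kPa with lysophosphatidic acid (LPA), and the day on fresh soft gels was spent with a drug that blocks focal adhesion kinase (FAK). LPA-to-soft differed from it in having no such drug after replating. Stiff-to-soft means conditioning on stiff gels of 20 kPa before the move to soft ones, and soft-to-soft means soft gels in both phases and no agent. Every library is thus from 1 cancer line, and none is from primary tissue. Levels are CPM, a gene's counts scaled to library size, with TMM factors. The 4 values given for a replicate number are from soft-to-soft first, then stiff-to-soft, LPA-to-soft and, last, LPA-to-FAKi. Differences are log2 fold changes ± SE from edgeR's quasi-likelihood fit with condition as a block, replicate 2 minus the other libraries, so a positive value means higher in replicate 2. Calls are at an adjusted p (Benjamini-Hochberg, all 15437 genes tested) under 0.05. Because it is not stated whether numbers mark separate cultures, the p-values reflect the spread of these 12 libraries and nothing wider, and that spread may be technical.

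Total counts per library ran from 62953957 to 122311183 in replicate 2 and from 73018393 to 121070917 in the other 8. The 12 markers of squamous epithelium examined, keratins, desmosome and adhesion genes among them, had between 40.6 and 5779 CPM in every library. Of these, 8 were lower and 1 higher in replicate 2 against the mean of the others, 3 lower (KRT5, TP63, DSG3) against both. Over all genes tested, 12.6% were lower and 14.6% higher against the mean, and 4.57% lower against both. Markers of other cell types were summed, fibroblast markers reaching 19.6 to 27.7 CPM in replicate 2 and 24.8 to 40.6 CPM in the other 8. Leukocyte markers summed to 21.4 to 34.9 CPM in replicate 2 and 14.9 to 50.2 CPM elsewhere, and endothelial markers to 18.0 to 39.4 CPM in replicate 2 and 8.77 to 27.6 CPM elsewhere. Melanocyte and neural markers summed to 36.6 to 48.5 CPM in replicate 2 and 29.98 to 37.9 CPM elsewhere. Called against both numbers, with log2 fold changes in brackets, were TUBB3, a neuronal tubulin (0.31 ± 0.06), CD14, a monocyte receptor (-1.34 ± 0.18), and VWF, an endothelial clotting protein (-0.77 ± 0.18), which was not called without LPA-to-soft replicate 2. The part of other cell types in the results was not tested. Low counts were of another kind in 2 libraries: of counts from 1 to 19, 42.2% were even in soft-to-soft replicate 2 and 42.9% in soft-to-soft replicate 1, while the other 10 libraries had 96.8% to 97.8%. What made low counts even is not given in the sources used here, so the totals of the 10 and of the 2 may be on unlike scales. PTK2, which encodes FAK, had 46.2, 52.5, 51.4 and 46.4 CPM in replicate 2, against 46.9, 50.4, 49.2 and 44.8 CPM in replicate 1 and 55.96, 55.5, 53.7 and 50.1 CPM in replicate 3. FN1, which encodes fibronectin, had 75.8, 173, 133 and 90.1 CPM in replicate 2, against 50.6, 90.4, 85.2 and 45.4 CPM in replicate 1 and 124, 248, 187 and 155 CPM in replicate 3, so replicate 2 lay above replicate 1 and below replicate 3 in every condition.

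In bulk RNA, fewer cells of a kind and less RNA per cell cannot be told apart, and this holds for every gene below. In the comparison of replicate 2 with the mean of replicates 1 and 3, 4204 genes were called, 27.2% of those tested, 2260 of them higher (14.6%) and 1944 lower (12.6%) in replicate 2. That split depends on the scaling: 53.8% of the calls were higher as reported, 41.8% with upper quartile scaling and 68.9% after correcting each library for GC content and transcript length. Against replicate 1 alone 5557 genes were called (36%), 19% of genes tested higher and 17% lower. Against replicate 3 alone 3660 were called (23.7%), 12.2% higher and 11.6% lower. Both of these comparisons contain the replicate 2 libraries. The mean of 2 unlike groups can differ from a library that resembles one of them, so the genes called in the same direction against both were taken as the ones that set replicate 2 apart. They numbered 1280 (8.29% of genes tested), 575 higher (3.72%) and 705 lower (4.57%) in replicate 2. The higher share of these was 44.9% as reported, 34.2% with upper quartile scaling and 59.9% with the length and GC correction. For 617 genes (4%) all 4 replicate 2 libraries also lay outside the range of the other 8, 300 above it (1.94%) and 317 below (2.05%). Leaving out 1 library lowered the 1280 to 590 without LPA-to-soft replicate 2 and to 835 without soft-to-soft replicate 2. The count was 717 without LPA-to-FAKi replicate 3, 755 without soft-to-soft replicate 3 and 776 without stiff-to-soft replicate 3. The 4204 were 1809 without LPA-to-soft replicate 2 and 2614 without soft-to-soft replicate 2. The 3660 were 1901 without LPA-to-soft replicate 2, and 2060, 2146 and 1963 without the replicate 3 library of soft-to-soft, of stiff-to-soft and of LPA-to-FAKi.

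Replicate 2 was not the extreme of a simple order. Of 8074 genes called for any difference among the 3 numbers (52.3%), replicate 2 had the highest fitted mean for 2390 (29.6%), the lowest for 2113 (26.2%) and the middle one for 3571 (44.2%). Over all 15437 genes tested the split was similar, with 30.69% highest, 29.27% lowest and 40.05% in the middle. Of the sum of squares over genes, 48.1% lay with replicate number and 22.2% with condition. The part that sets replicate 2 against the other numbers held 17.5%, and the part between replicate 1 and replicate 3 held 30.6%. The second principal component, 22.2% of the variance, placed the replicate 2 libraries between 17.4 and 43.4 and 7 of the other 8 below 0, but LPA-to-FAKi replicate 1 stood at 40.1 among the replicate 2 libraries. Genes lower in replicate 2 had larger fold changes than genes higher in it. The median log2 fold change of the 705 was -0.67 and that of the 575 was 0.36, and 144 of the 705, against 25 of the 575, were at least 1 away from each of the other numbers.

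Genes furthest from both other numbers were taken by a fixed rule, 12 in each direction, of which 11 above and 12 below are described. Those furthest above were RAB3B, a small GTPase of regulated secretion, and INHBB, the beta B subunit of activins and inhibins. Also among them were TIMP4, an inhibitor of matrix metalloproteinases, ETV5, an ETS transcription factor induced by ERK signalling, and the microtubule-associated protein MAP1B. The others were the calcium-binding protein CALB2, the RNA-binding protein RBM24, the leucine-rich repeat protein LRRN4, the potassium channel subunit KCNF1 and the long noncoding RNAs LINC01204 and MIR100HG. RAB3B had 4.10, 2.75, 2.50 and 4.84 CPM in replicate 2, against 0.937, 0.903, 0.827 and 1.27 CPM in replicate 1 and 0.682, 0.887, 0.634 and 0.932 CPM in replicate 3 (log2 fold change 1.98 ± 0.16, edgeR adjusted p = 5.92e-05). INHBB had 14.96, 28.9, 14.7 and 23.9 CPM in replicate 2, against 4.51, 10.6, 3.43 and 13.1 CPM in replicate 1 and 4.93, 12.4, 7.10 and 4.99 CPM in replicate 3 (log2 fold change 1.47 ± 0.22, edgeR adjusted p = 0.0015). Neither gene overlapped between replicate 2 and the rest, and the nearest of the other 8 was LPA-to-FAKi replicate 1 for both. ETV5 had 19.9, 16.3, 20.4 and 22.4 CPM in replicate 2, against 5.13, 8.40, 5.07 and 15.2 CPM in replicate 1 and 5.07, 6.002, 5.89 and 6.51 CPM in replicate 3 (log2 fold change 1.54 ± 0.18). Again LPA-to-FAKi replicate 1 came nearest to replicate 2. The other 8 had low levels, between 0.811 and 6.70 CPM in single replicate 2 libraries. Their log2 fold changes were 1.53 for TIMP4, 2.09 for MIR100HG, 1.81 for CALB2, 1.52 for LINC01204 and 1.43 for MAP1B. They were 1.20 for KCNF1, 1.19 for LRRN4 and 1.16 for RBM24.

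The 12 genes furthest below held 3 of the 4 EGR transcription factors, the orphan nuclear receptor NR4A1 and the growth suppressor BTG2, all of the immediate early class described next. The rest act outside the cell. COL21A1 is a collagen chain, LOXL4 a collagen cross-linking amine oxidase and MMP12 a matrix metalloproteinase. SERPING1 and CFI are inhibitors of the complement cascade, CP (ceruloplasmin) carries copper and SEPP1 (selenoprotein P) carries selenium. COL21A1 had 0.254, 0.168, 0.192 and 0 CPM in replicate 2, against 5.74, 2.17, 5.67 and 0.611 CPM in replicate 1 and 1.92, 1.51, 1.89 and 0.756 CPM in replicate 3 (log2 fold change -4.03 ± 0.44, edgeR adjusted p = 0.000262). LOXL4 had 4.10, 15.2, 5.34 and 3.37 CPM in replicate 2, against 136, 56.6, 126 and 21.7 CPM in replicate 1 and 37.4, 33.5, 27.1 and 21.2 CPM in replicate 3 (log2 fold change -2.87 ± 0.44), or -3.46 without stiff-to-soft replicate 2. For both genes every replicate 2 library was below all of the other 8, and the stiff-to-soft library of LOXL4 stood above the other 3 of its number. COL21A1 had no count in LPA-to-FAKi replicate 2. SEPP1 had 0.0954, 0.0791, 0.0384 and 0.146 CPM in replicate 2, against 6.02, 0.849, 4.44 and 2.13 CPM in replicate 1 and 0.997, 0.335, 0.5677 and 0.705 CPM in replicate 3. CP had -3.07 ± 0.66 (log2 fold change, edgeR adjusted p = 0.00767), and this value was -3.95 without stiff-to-soft replicate 2. MMP12, SERPING1 and CFI had log2 fold changes of -2.94 ± 0.40, -2.999 ± 0.57 and -2.75 ± 0.36.

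**Figure D1:**
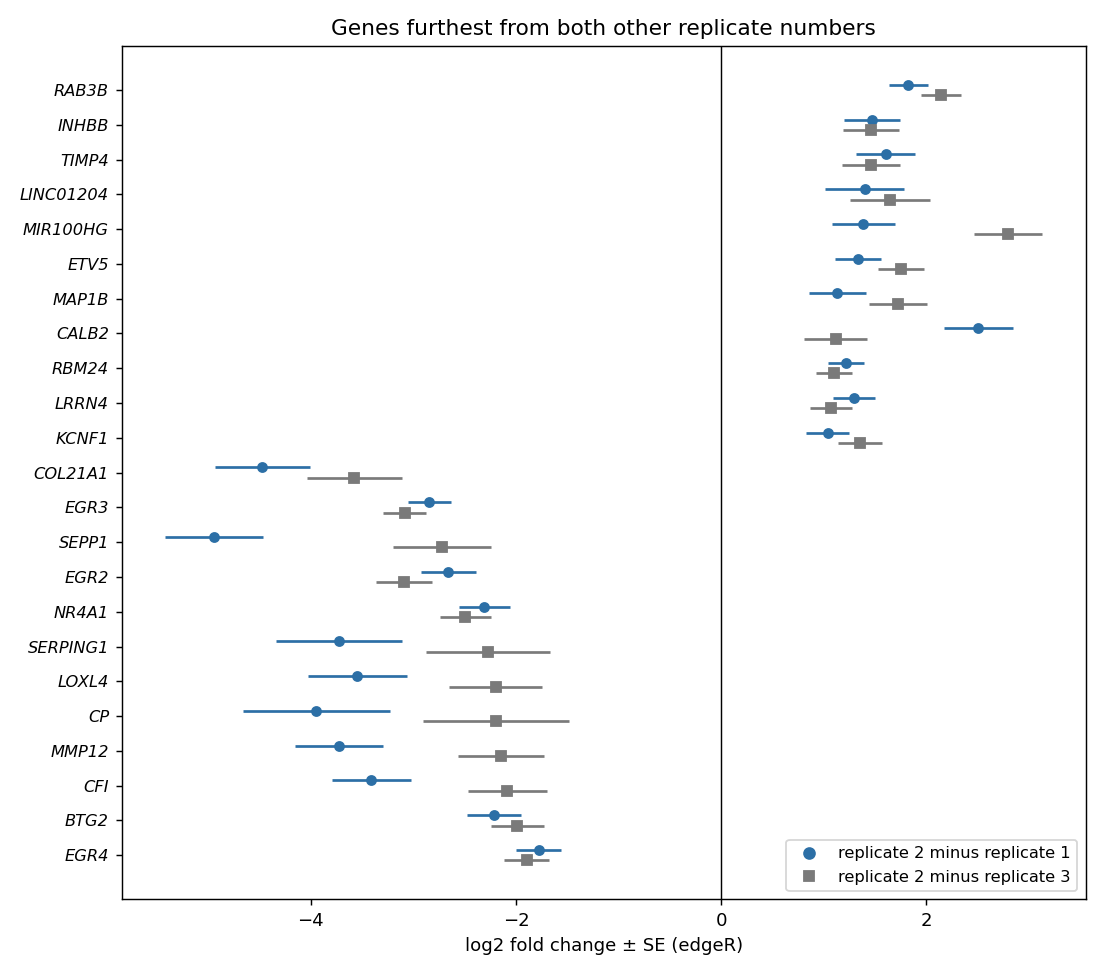
Log2 fold changes ± SE from edgeR for 11 of the 12 genes furthest above and the 12 furthest below, replicate 2 minus replicate 1 (circles) and replicate 2 minus replicate 3 (squares); both share the 4 replicate 2 libraries. The higher genes lie between 1.04 and 2.80 in either comparison, and the lower genes between -4.94 and -1.78.

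Immediate early genes are transcribed within minutes of a growth factor, serum or mechanical stimulus, without new protein synthesis, through ERK and the serum response factor and through cyclic AMP and calcium acting on CREB at the cyclic AMP response element. Their products include the AP-1 subunits of the FOS and JUN families, the EGR zinc finger factors, the NR4A orphan receptors and proteins that end the signal, such as DUSP1, which dephosphorylates MAP kinases. Promoters that hold a cyclic AMP response element (TGACGTCA, which reads the same on both strands, in capitals) are shown for the 2 members called against both with the smallest adjusted p among those with the motif. They are from RefSeq on GRCh38.p14, while the counts were made on hg19, and run from 250 bases before the annotated start to 50 after it.
JUND, chr19:18281573-18281872, minus strand: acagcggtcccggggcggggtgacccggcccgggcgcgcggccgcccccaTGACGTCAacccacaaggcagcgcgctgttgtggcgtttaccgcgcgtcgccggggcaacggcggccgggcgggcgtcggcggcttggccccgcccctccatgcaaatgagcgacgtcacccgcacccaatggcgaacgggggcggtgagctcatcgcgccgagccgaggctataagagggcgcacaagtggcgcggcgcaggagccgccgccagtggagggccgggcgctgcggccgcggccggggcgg
DUSP1, chr5:172771146-172771445, minus strand: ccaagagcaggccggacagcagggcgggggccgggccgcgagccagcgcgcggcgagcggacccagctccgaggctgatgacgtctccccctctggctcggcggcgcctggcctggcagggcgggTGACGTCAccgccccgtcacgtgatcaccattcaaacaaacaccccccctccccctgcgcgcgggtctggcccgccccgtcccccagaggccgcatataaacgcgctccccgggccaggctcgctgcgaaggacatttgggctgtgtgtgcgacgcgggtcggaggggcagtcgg
The motif stood in 3 of the 32 members matched to a promoter, all 3 called against both (of 19 such members matched), and in 1.85% of all 35116 promoters. A match describes the sequence and is no evidence of binding.

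Of 42 immediate early genes tested, 25 were lower in replicate 2 against both other numbers and 0 were higher, 59.5% of the list beside 8.29% of all genes. Against the mean of both, 36 fell and 0 rose (12.6% and 14.6% over all genes). The 6 that did not pass the test (FOSL1, KLF2, DUSP6, ARC, PHLDA1, GADD45B) had log2 fold changes from -0.15 to 0.28. The list's median was -0.69, beside 0.01 over all genes tested, and was -0.73 in soft-to-soft, -0.46 in stiff-to-soft, -0.83 in LPA-to-soft and -0.61 in LPA-to-FAKi. Summed over the list, the 4 replicate 2 libraries had 4960 to 6247 CPM, against 6328 to 9672 CPM in replicate 1 and 9018 to 11949 CPM in replicate 3, with no overlap. For 15 of the 42 genes all 4 replicate 2 libraries lay outside the range of the other 8, as they did for 5.85% of all genes tested (3.25% above it, 2.6% below). The count of 25 was 23 without the 2 libraries of unlike low counts and lay between 21 and 29 over the 27 alternatives other than the test against a log2 fold change of 0.5, which is also the set behind each later range over alternatives.

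The 4 EGR factors had log2 fold changes between -2.96 and -1.31, EGR3 and EGR2 having the lowest values of the list, and all 4 were outside the range of the other 8 libraries. EGR3 had 14.6, 6.11, 8.47 and 4.01 CPM in replicate 2, against 93.2, 33.6, 92.98 and 26.4 CPM in replicate 1 and 97.04, 41.5, 71.1 and 53.5 CPM in replicate 3 (log2 fold change -2.96 ± 0.20, edgeR adjusted p = 2.65e-05). EGR2 had 9.68, 6.11, 7.25 and 3.82 CPM in replicate 2, against 76.5, 23.1, 69.3 and 18.7 CPM in replicate 1 and 75.3, 40.8, 51.97 and 50.9 CPM in replicate 3 (log2 fold change -2.88 ± 0.25, edgeR adjusted p = 8.94e-05). Within replicate 2, as in the other numbers, soft-to-soft was the highest of the 4 conditions for both genes. EGR1, the most abundant of the family, had 536, 341, 429 and 399.9 CPM in replicate 2, against 1093, 626, 1163 and 621 CPM in replicate 1 and 1674, 1029, 1269.99 and 1281 CPM in replicate 3 (log2 fold change -1.31 ± 0.11). EGR4 had -1.84 ± 0.20, at 0.634 to 1.56 CPM in replicate 2 and 2.15 to 5.94 CPM in the other 8.

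All 3 NR4A receptors were lower against both numbers (4.57% over all genes). NR4A1 had 27.7, 13.05, 18.7 and 14.5 CPM in replicate 2, against 174, 56.7, 142 and 35.05 CPM in replicate 1 and 135, 71.6, 108 and 90.3 CPM in replicate 3 (log2 fold change -2.40 ± 0.23, edgeR adjusted p = 0.000136). BTG2, which slows proliferation and is also a p53 target, had 32.2, 17.8, 20.1 and 17.7 CPM in replicate 2, against 214, 66.96, 146 and 38.1 CPM in replicate 1 and 145, 53.2, 85.8 and 76.9 CPM in replicate 3 (log2 fold change -2.10 ± 0.24). The highest replicate 2 library for each gene, soft-to-soft, stayed below the lowest of the others, which was LPA-to-FAKi replicate 1.

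Of 7 AP-1 subunits, 6 fell against the mean of both numbers (12.6% over all genes) and 5 against each (4.57%). FOS had 130.03, 118, 108 and 136 CPM in replicate 2, against 332, 174, 401 and 203 CPM in replicate 1 and 607, 487, 419 and 585 CPM in replicate 3 (log2 fold change -1.61 ± 0.19, edgeR adjusted p = 0.000463). Its replicate 2 libraries lay below all the others, and replicate 3 was above replicate 1 in every condition, by the least in LPA-to-soft. FOSB (-1.51 ± 0.14), JUNB (-1.004 ± 0.11) and JUN (-0.65 ± 0.10) also fell on the log2 scale. JUND, whose promoter is printed above, had 101, 101, 87.1 and 82.8 CPM in replicate 2, against 147, 105, 162 and 134 CPM in replicate 1 and 192, 195, 189 and 198 CPM in replicate 3 (log2 fold change -0.81 ± 0.10). FOSL1 was the subunit that did not pass the test.

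Among regulators that close the response, DUSP1 had 95.1, 92.7, 82.3 and 101 CPM in replicate 2, against 201, 90.9, 207 and 127 CPM in replicate 1 and 270.1, 225, 187 and 254 CPM in replicate 3 (log2 fold change -1.02 ± 0.18, edgeR adjusted p = 0.00311). Here replicate 2 overlapped replicate 1 in the stiff-to-soft condition. IER5, which had the second smallest adjusted p of the list, fell by a small and even amount, with 117, 94.9, 102 and 96.9 CPM in replicate 2, against 180.2, 143, 163 and 161 CPM in replicate 1 and 161, 130.2, 140.3 and 132 CPM in replicate 3 (log2 fold change -0.56 ± 0.04, edgeR adjusted p = 3.85e-05). Of the 4 KLF factors of the list, 3 fell against the mean of both numbers (12.6% over all genes) and 0 were called against both (8.29%).

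ERK target genes did not move as one with these. Of 18 genes of the ERK feedback list, which overlaps the immediate early list, 3 were higher and 2 lower against both numbers. Over all genes these shares were 3.72% and 4.57%. The ETS factors ETV4 and ETV5 and the cyclin CCND1 were higher. ETV4 had 41.9, 32.9, 30.3 and 48.6 CPM in replicate 2, against 18.4, 28.4, 18.5 and 35.3 CPM in replicate 1 and 12.4, 13.6, 14.1 and 20.03 CPM in replicate 3 (log2 fold change 0.999 ± 0.11), and CCND1 had a log2 fold change of 0.69 ± 0.12. The lower ones were DUSP5, an ERK phosphatase (-0.85 ± 0.10), and IER3 (-0.34 ± 0.05), both of which also stand in the immediate early list. Over the same alternatives the 3 lay between 1 and 4 and the 2 between 1 and 2.

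The integrated stress response is the program that follows phosphorylation of the initiation factor eIF2 under amino acid shortage, unfolded protein, haem deficiency or viral RNA. Translation of the transcription factor ATF4 then rises, and ATF4 with its partners induces amino acid synthesis, amino acid transport and aminoacyl-tRNA synthetases through composite CHOP-ATF4 sites. Promoters that hold such a site (TGATGNAA, searched on both strands, in capitals, as its reverse complement in AARS) are shown for the 2 members called against both with the smallest adjusted p among those with the motif. AARS is named AARS1 in RefSeq.
AARS, chr16:70289457-70289756, minus strand: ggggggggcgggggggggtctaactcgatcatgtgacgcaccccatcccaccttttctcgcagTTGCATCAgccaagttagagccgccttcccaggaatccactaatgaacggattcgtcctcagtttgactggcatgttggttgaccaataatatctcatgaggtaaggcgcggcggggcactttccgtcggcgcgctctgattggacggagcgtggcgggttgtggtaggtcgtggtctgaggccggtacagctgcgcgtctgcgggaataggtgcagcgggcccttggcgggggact
ASNS, chr7:97872359-97872658, minus strand: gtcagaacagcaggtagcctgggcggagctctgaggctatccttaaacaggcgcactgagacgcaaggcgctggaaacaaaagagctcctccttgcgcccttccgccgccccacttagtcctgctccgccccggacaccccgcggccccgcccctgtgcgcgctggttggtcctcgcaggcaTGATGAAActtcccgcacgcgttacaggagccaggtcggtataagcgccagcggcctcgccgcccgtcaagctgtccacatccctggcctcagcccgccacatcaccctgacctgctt
The motif stood in 10 of the 33 members matched to a promoter, in 6 of the 18 of these that were called against both, and in 3.62% of all 35116 promoters.

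Of 44 genes of this response tested, 23 were higher in replicate 2 against both numbers and 1 was lower. Over all genes these shares were 3.72% and 4.57%. Against the mean of both, 34 rose (14.6% over all genes), 2 fell (12.6%) and 8 did not pass the test. The list's median log2 fold change was 0.34, beside 0.01 over all genes tested, and was 0.36 in soft-to-soft, 0.34 in stiff-to-soft, 0.54 in LPA-to-soft and 0.24 in LPA-to-FAKi. Summed over the list, replicate 2 had 9738 to 10696 CPM, against 7213 to 8201 CPM in replicate 1 and 8625 to 9445 CPM in replicate 3, again with no overlap. All 4 replicate 2 libraries lay above the other 8 for 21 of the 44 genes (3.25% over all genes). The count of 23 was 10 without LPA-to-FAKi replicate 3, 11 without LPA-to-soft replicate 2 and 13 without stiff-to-soft replicate 3. It was 15 without soft-to-soft replicates 1 and 2, while the median lay between 0.29 and 0.41 over the same alternatives.

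Aminoacyl-tRNA synthetases, which charge tRNAs with their amino acids, moved together by small amounts. All 12 of the list rose against the mean of both numbers (14.6% over all genes), with log2 fold changes from 0.17 to 0.52. Against each number 11 of the 12 rose (3.72% over all genes), NARS being the exception. The groupings by role here and for the immediate early genes were made after the values were seen. AARS, the alanyl-tRNA synthetase, had 261, 290.1, 318 and 264 CPM in replicate 2, against 169, 214, 168 and 199 CPM in replicate 1 and 199, 211, 209 and 214 CPM in replicate 3 (log2 fold change 0.52 ± 0.07, edgeR adjusted p = 0.000621). The lowest replicate 2 library stood above the highest of the other 8.

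Of the enzymes that make amino acids, PSAT1 and ASNS had the larger values. PSAT1, an aminotransferase of serine synthesis, had 316, 356, 409.9 and 309 CPM in replicate 2, against 142, 208, 138 and 178 CPM in replicate 1 and 201, 203, 220.2 and 211 CPM in replicate 3 (log2 fold change 0.90 ± 0.10, edgeR adjusted p = 0.000271). ASNS, asparagine synthetase, had 69.5, 80.3, 101 and 70.01 CPM in replicate 2, against 34.99, 53.4, 31.5 and 43.8 CPM in replicate 1 and 39.3, 40.8, 46.5 and 44.1 CPM in replicate 3 (log2 fold change 0.94 ± 0.12, edgeR adjusted p = 0.00072). LPA-to-soft was the highest replicate 2 library for both, and the groups did not overlap. PSPH, the last enzyme of serine synthesis (0.40 ± 0.05), and CBS, which makes cystathionine (0.56 ± 0.06), rose by less, with replicate 3 nearer to replicate 2 than replicate 1 was. Of 6 serine and one-carbon enzymes, 5 rose against the mean of both numbers (14.6% over all genes) and 3 against each (3.72%). Those not called against each were PHGDH, SHMT2 and ALDH1L2. Of 6 amino acid transporters, 5 rose against the mean and 1 against each, with 0 outside the range of the other 8 libraries. Over all genes these shares were 14.6%, 3.72% and 5.85%.

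ATF4 had 546, 575, 571 and 528 CPM in replicate 2, against 412, 456, 372 and 469 CPM in replicate 1 and 406, 397, 408 and 391 CPM in replicate 3 (log2 fold change 0.43 ± 0.06, edgeR adjusted p = 0.000994). The pseudokinase TRIB3, which binds ATF4, rose by 0.78 ± 0.10 on the log2 scale. STC2, a secreted stanniocalcin, had 132, 171, 161 and 154 CPM in replicate 2, against 62.5, 107, 80.2 and 127 CPM in replicate 1 and 65.5, 79.2, 67.5 and 70.2 CPM in replicate 3 (log2 fold change 0.94 ± 0.10). All 3 genes were above the range of the other 8 libraries. A few members went the other way or did not pass the test. PPP1R15A (GADD34), the phosphatase subunit that reverses eIF2 phosphorylation, had 247, 208, 211 and 232 CPM in replicate 2, against 397, 238, 329 and 288 CPM in replicate 1 and 420.1, 303, 323 and 334 CPM in replicate 3 (log2 fold change -0.54 ± 0.07, edgeR adjusted p = 0.000696). ATF3, an ATF4 target that also stands in the immediate early list, had a log2 fold change of -0.73 ± 0.10 and was called against replicate 3 but not replicate 1 (-0.24, edgeR adjusted p = 0.12). DDIT3, which encodes CHOP, had 15.3, 19.8, 20.8 and 13.8 CPM in replicate 2, against 19.7, 14.9, 14.8 and 11.97 CPM in replicate 1 and 17.7, 16.1, 16.01 and 13.7 CPM in replicate 3, and did not pass the test (0.16 ± 0.10, edgeR adjusted p = 0.267). Without soft-to-soft replicate 2 it passed, at 0.30.

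**Figure D2:**
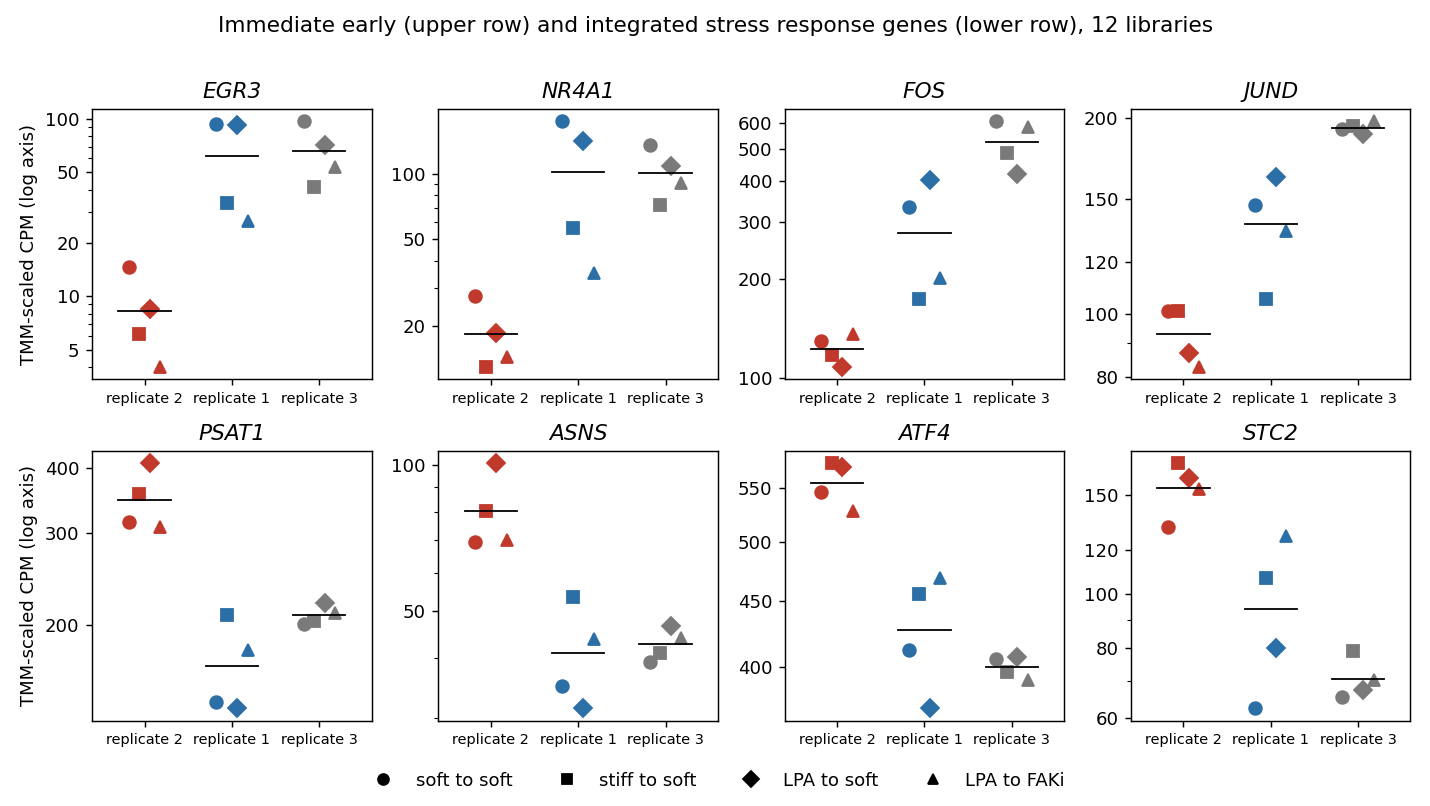
TMM-scaled CPM (log axis) of 4 immediate early genes (upper row) and 4 integrated stress response genes (lower row) in each library, by replicate number (colour) and condition (shape); lines mark the mean of 4 libraries. All 4 replicate 2 libraries lie below the other 8 in the upper row and above them in the lower row.

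The 13 protein-coding genes of the mitochondrial genome, which encode subunits of the respiratory chain and of ATP synthase, all had lower values in replicate 2. All 13 fell against the mean of both numbers (12.6% over all genes) and 8 fell against each (4.57%). The median log2 fold change was -0.55. Together they took 4.31% to 5.05% of counts in replicate 2, against 5.47% to 8.22% in the other 8 libraries. COX1, a subunit of cytochrome c oxidase, had 8464, 8601, 8229 and 9808 CPM in replicate 2, against 16283, 11431, 14299.5 and 10458 CPM in replicate 1 and 18832, 18968, 11829.6 and 15236 CPM in replicate 3 (log2 fold change -0.72 ± 0.13, edgeR adjusted p = 0.00385). ND5, a subunit of complex I, had 1648, 1575, 1605 and 1791 CPM in replicate 2, against 4386, 2729, 3582 and 2325 CPM in replicate 1 and 4064, 3663, 2438 and 3048 CPM in replicate 3 (log2 fold change -0.96 ± 0.15). Replicate 2 was even across conditions for both genes, while replicates 1 and 3 spread widely and came nearest to it in LPA-to-FAKi replicate 1. The others named by the rule were COX3 (-0.83 ± 0.12), ND2 (-0.61 ± 0.10), CYTB (-0.65 ± 0.13) and ND3 (-0.49 ± 0.10). The 69 nuclear-encoded subunits of the same complexes gave 0 calls against both numbers, 61 higher against replicate 1 (19% over all genes) and 18 lower against replicate 3 (11.6% over all genes). The count of 8 was 5 without soft-to-soft replicate 2, 5 without LPA-to-soft replicate 1 and 4 without soft-to-soft replicates 1 and 2.

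Complement proteins, secreted or on the cell surface, tag microbes and cells for clearance, and factor I, clusterin and the C1 inhibitor restrain them. Of 14 complement genes tested, 6 were lower against both numbers (4.57% over all genes) and 0 higher (3.72%), with a list median of -0.88. C3, the central component, had 335, 1162, 580.5 and 478 CPM in replicate 2, against 1241, 1116, 1353 and 525 CPM in replicate 1 and 1178, 1686, 1244 and 1052 CPM in replicate 3 (log2 fold change -0.95 ± 0.23, edgeR adjusted p = 0.0138). Its replicate 2 libraries overlapped those of both other numbers, and the call was lost without LPA-to-soft replicate 2, at -0.88. CLU (-0.82 ± 0.11) and CFD, a protease that activates the alternative pathway (-1.01 ± 0.15), lay below the other 8 libraries in all conditions. The count of 6 was 10 without stiff-to-soft replicate 1, 4 without LPA-to-FAKi replicate 2 and 4 without soft-to-soft replicates 1 and 2.

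Interferon-stimulated genes are switched on by the factor ISGF3, of which IRF9 is the DNA-binding part, and encode antiviral proteins. Of 60 tested, 18 were lower against both numbers (4.57% over all genes) and 0 higher (3.72%). Against the mean of both, 42 fell (12.6% over all genes). The 2 comparisons were unequal: the list's median was -0.09 against replicate 1 and -0.92 against replicate 3, with 18 genes lower and 8 higher against replicate 1 and 55 lower and 0 higher against replicate 3. Over all genes the shares were 17% lower and 19% higher against replicate 1, and 11.6% lower and 12.2% higher against replicate 3. The count of 18 was 14 without soft-to-soft replicates 1 and 2 and 8 with all LPA-to-soft libraries left out. IRF9 had 15.1, 13.6, 14.8 and 11.9 CPM in replicate 2, against 30.6, 26.5, 27.9 and 16.3 CPM in replicate 1 and 72.7, 49.3, 63.1 and 41.1 CPM in replicate 3 (log2 fold change -1.42 ± 0.09, edgeR adjusted p = 2.13e-05). IFI6, an interferon-induced membrane protein, had 73.6, 22.97, 35.3 and 25.4 CPM in replicate 2, against 152, 107, 151 and 47.4 CPM in replicate 1 and 483, 192, 327 and 161 CPM in replicate 3 (log2 fold change -2.23 ± 0.18). Replicate 3 stood above both other numbers in each condition for both genes. LPA-to-FAKi replicate 1 was the nearest to replicate 2 for IRF9 and lay within its range for IFI6. IFI44L (-2.43 ± 0.21), the RNA sensor OAS2 (-1.25 ± 0.12), EPSTI1 (-1.42 ± 0.15) and IFI27 (-1.22 ± 0.10) fell likewise.

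**Figure D3:**
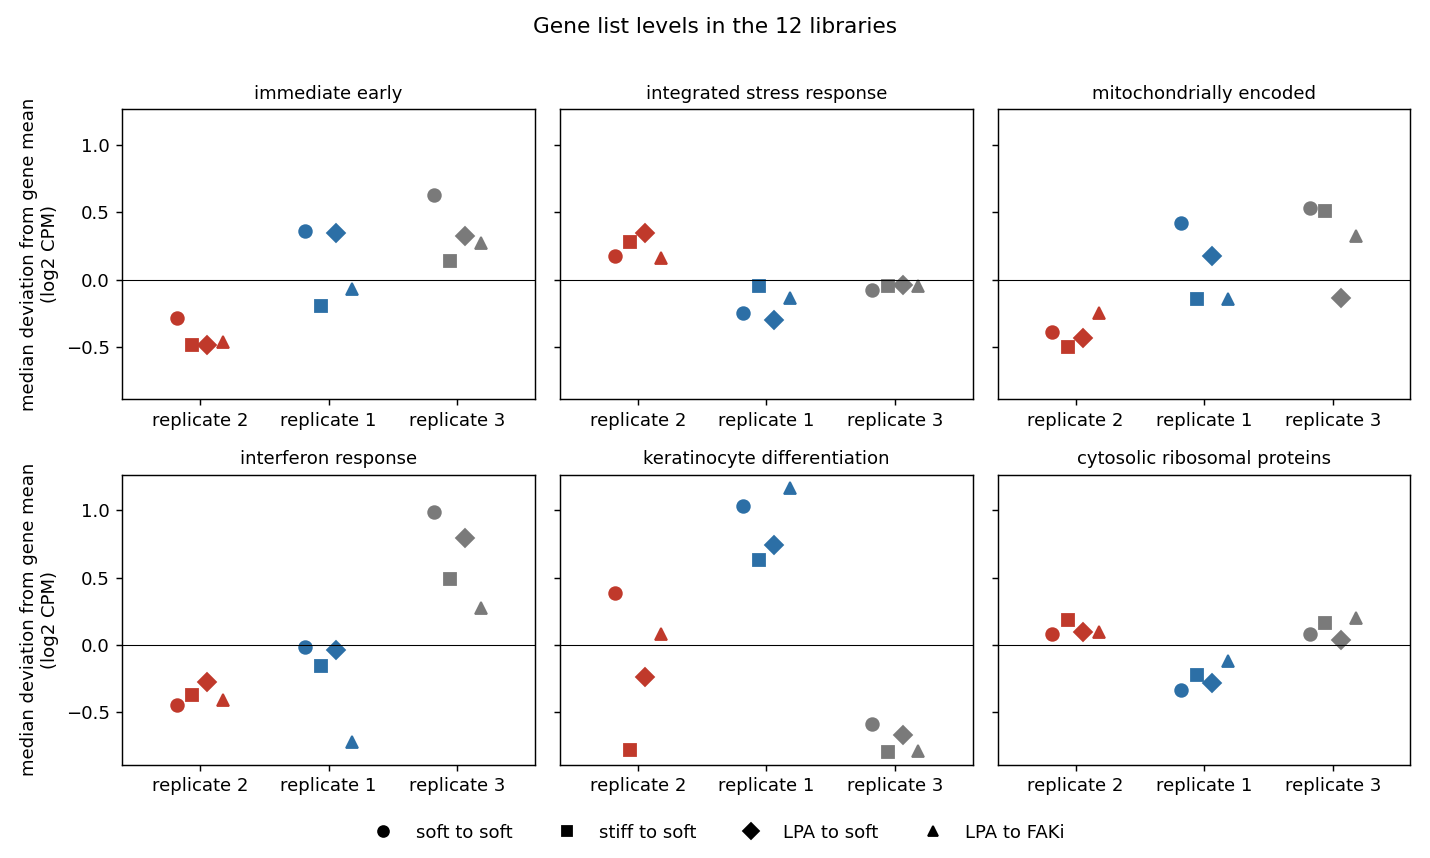
Median deviation of each list's genes from their mean over the 12 libraries (log2 CPM), per library, by replicate number (colour) and condition (shape). Replicate 2 lies apart from both other numbers for the immediate early, integrated stress response and mitochondrially encoded lists, within the range of replicate 1 for the interferon list, and overlaps replicate 3 for keratinocyte differentiation and ribosomal proteins.

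Keratins mark the state of an epithelium: KRT5 and KRT14 belong to the basal layer of stratified epithelium, and KRT7, KRT8 and KRT18 to simple epithelium and to many carcinomas. Of 7 keratins tested, the simple epithelial KRT7, KRT8, KRT18, KRT19 and KRT20 with the hair keratins KRT81 and KRT86, 3 were higher in replicate 2 against both numbers and 0 lower, and all 7 had positive values. KRT8 had 1147, 1548, 1443 and 1606 CPM in replicate 2, against 395, 616, 372 and 772 CPM in replicate 1 and 713, 970.1, 810.1 and 896 CPM in replicate 3 (log2 fold change 1.11 ± 0.10, edgeR adjusted p = 0.000118). KRT18, its partner in the filament, had 793, 977, 846 and 1035 CPM in replicate 2, against 379, 503, 374 and 736 CPM in replicate 1 and 560.5, 742, 614 and 704 CPM in replicate 3 (log2 fold change 0.70 ± 0.09). For both genes replicate 2 lay above the other 8, of which stiff-to-soft replicate 3 came nearest. KRT7 rose by 0.73 ± 0.11, but its soft-to-soft library overlapped the others. The count of 3 lay between 1 and 4 over the same alternatives, and 3.72% of all genes were higher against both.

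Of 31 basal keratinocyte genes, 6 were lower (4.57% over all genes) and 0 higher (3.72%) against both numbers. The 6 were 3 without LPA-to-soft replicate 1 and 3 without LPA-to-soft replicate 2. The list's median was 0.29 in soft-to-soft, -0.35 in stiff-to-soft, -0.30 in LPA-to-soft and -0.36 in LPA-to-FAKi. KRT5 had 4637, 2701, 3262 and 2708 CPM in replicate 2, against 5779, 4647, 5333 and 4023 CPM in replicate 1 and 5374, 4004, 4568 and 4521 CPM in replicate 3 (log2 fold change -0.55 ± 0.08, edgeR adjusted p = 0.000966). TP63, the transcription factor that keeps squamous identity (-0.46 ± 0.07), and SOX2, amplified in many squamous carcinomas (-0.996 ± 0.12), were lower as well. KRT15 (-1.51 against replicate 1, -0.11 against replicate 3) and KRT17 (-1.15 and -0.18) were lower only in the first of these comparisons by the test. Reads of KRT17 may be shared with near-identical keratin copies. The desmosomal cadherin DSG3 was called against both numbers, at -1.56 against replicate 1 and -0.19 against replicate 3.

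Genes of terminal keratinocyte differentiation differed from each of the other numbers in opposite directions. Of 56 genes of this list, 34 were lower and 1 higher against replicate 1, while 26 were higher and 4 lower against replicate 3, so 1 (KRT80) was higher and 4 were lower against both. Over all genes 17% were lower and 19% higher against replicate 1, and 12.2% higher and 11.6% lower against replicate 3. Against both, 3.72% of all genes were higher and 4.57% lower. Those 4 were ZNF750, a transcription factor of epidermal differentiation, and the serpins SERPINB3, SERPINB4 and SERPINB13. ZNF750 had 58.2, 31.5, 53.4 and 38.1 CPM in replicate 2, against 199.9, 89.6, 154 and 70.5 CPM in replicate 1 and 166, 75.9, 114 and 101 CPM in replicate 3 (log2 fold change -1.38 ± 0.12, edgeR adjusted p = 8.94e-05). SERPINB13 had a log2 fold change of -2.16 ± 0.20. SERPINB3 (-1.87 ± 0.13) and SERPINB4 (-1.92 ± 0.17) are near-identical copies, so the division of reads between them is uncertain. The S100 proteins S100A7 (-1.74 ± 0.32), S100A8 (-0.94 ± 0.16) and S100A9 (-1.01 ± 0.18), released by activated keratinocytes, were lower against both, and S100A7 may share reads with S100A7A. Over the same alternatives, 1 to 5 of the 17 S100 genes tested were lower against both (4.57% over all genes as reported). Their number was 5 without LPA-to-FAKi replicate 1, and 1 without replicate 2 or replicate 3 of soft-to-soft or of LPA-to-FAKi.

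Notch signalling between neighbouring cells drives keratinocytes out of the basal layer, and HES and NRARP genes are its direct targets. Of 24 genes of the pathway tested, 5 were lower against both numbers (4.57% over all genes) and 0 higher (3.72%). The list's median was -0.52. NRARP, which dampens the Notch transcription complex, had 137, 68.2, 80.9 and 89.6 CPM in replicate 2, against 323, 187, 257 and 189 CPM in replicate 1 and 319, 153, 188 and 183 CPM in replicate 3 (log2 fold change -1.26 ± 0.08, edgeR adjusted p = 2.13e-05). The repressor HES1 had 254, 189, 218 and 164 CPM in replicate 2, against 453, 294, 391 and 227 CPM in replicate 1 and 638, 379.9, 447 and 428 CPM in replicate 3 (log2 fold change -0.95 ± 0.09). HES4 (-0.86 ± 0.14) and the receptor NOTCH3 (-0.84 ± 0.09) were lower against both, while HES2 was lower against replicate 1 (-1.43) and had 0.02 against replicate 3. MFNG, a glycosyltransferase that modifies Notch receptors, went the other way against the mean of both (1.05 ± 0.17). The count of 5 was 3 without LPA-to-FAKi replicate 3, 3 without soft-to-soft replicate 3, 2 without LPA-to-soft replicate 2 and 2 without stiff-to-soft replicate 3.

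Chaperones keep other proteins folded and are induced by heat and by misfolded protein. Of 34 heat shock genes tested, 6 were higher and 1 lower against both numbers (3.72% and 4.57% over all genes). Against the mean of both, 23 rose and 1 fell (14.6% and 12.6% over all genes). HSPA1A (0.75 ± 0.06) and HSPA1B (0.81 ± 0.06), 2 near-identical inducible HSP70 genes whose reads may be shared, and the constitutive HSPA8 (0.56 ± 0.07) lay above the other 8 libraries. HSPH1, a nucleotide exchange factor of HSP70, had 481, 436, 447 and 452 CPM in replicate 2, against 313, 393, 278 and 307 CPM in replicate 1 and 325, 342, 339 and 319 CPM in replicate 3 (log2 fold change 0.48 ± 0.07, edgeR adjusted p = 0.00126).

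Of 41 targets of NRF2, the factor that responds to oxidative stress, 9 were higher and 1 lower against both numbers. Over all genes these shares were 3.72% and 4.57%. The 9 were 5 without LPA-to-FAKi replicate 3, and the list's median of 0.14 was 0.06 without LPA-to-soft replicate 2. HMOX1, haem oxygenase 1, had 20.7, 31.9, 20.5 and 21.8 CPM in replicate 2, against 13.3, 16.2, 12.3 and 16.7 CPM in replicate 1 and 10.1, 14.95, 10.2 and 12.5 CPM in replicate 3 (log2 fold change 0.84 ± 0.07, edgeR adjusted p = 8.94e-05). GCLM, the modifier subunit of the enzyme that limits glutathione synthesis, had 58.8, 55.5, 52.6 and 53.5 CPM in replicate 2, against 29.1, 39.8, 26.4 and 32.8 CPM in replicate 1 and 33.2, 38.4, 34.1 and 38.9 CPM in replicate 3 (log2 fold change 0.71 ± 0.07). TRIM16L (0.71 ± 0.07), OSGIN1 (0.79 ± 0.10) and the aldose reductase AKR1B1 (0.45 ± 0.05) rose too, while EPHX1, microsomal epoxide hydrolase, fell (-0.30 ± 0.05).

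All 45 ribosome biogenesis genes had positive values, 43 of 45 with upper quartile scaling. Against the mean of both numbers 30 rose (14.6% over all genes). Against each number 8 rose (3.72% over all genes) and 0 fell. UTP20, a component of the small subunit processome (0.47 ± 0.08), and BOP1, a large subunit assembly factor (0.40 ± 0.08), were among the 8. That count was 1 without LPA-to-soft replicate 2 and 1 without each of the replicate 3 libraries of soft-to-soft, stiff-to-soft and LPA-to-FAKi. It was 2 without soft-to-soft replicate 2, also with soft-to-soft replicate 1 left out. It was 5 without replicate 1 of soft-to-soft or of LPA-to-soft, and 5 without replicate 2 of LPA-to-FAKi. Of 77 cytosolic ribosomal protein genes, 58 rose against the mean of both numbers (14.6% over all genes) and 74 were higher against replicate 1 (19%). Against replicate 3, 0 were called (23.7% over all genes), so 0 were called against both (8.29%). The snoRNA host genes are mostly noncoding transcripts that carry small nucleolar RNAs in their introns. Of the 18 tested, 5 were higher (3.72% over all genes) and 0 lower against both. They included SNHG5 (0.51 ± 0.08), ZFAS1 (0.34 ± 0.05) and GAS5 (0.37 ± 0.08); the 5 were 2 without LPA-to-soft replicate 2, 3 without LPA-to-soft replicate 1 and 3 without LPA-to-FAKi replicate 3. GAS5 did not pass without LPA-to-soft replicate 2, at 0.30.

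**Figure D4:**
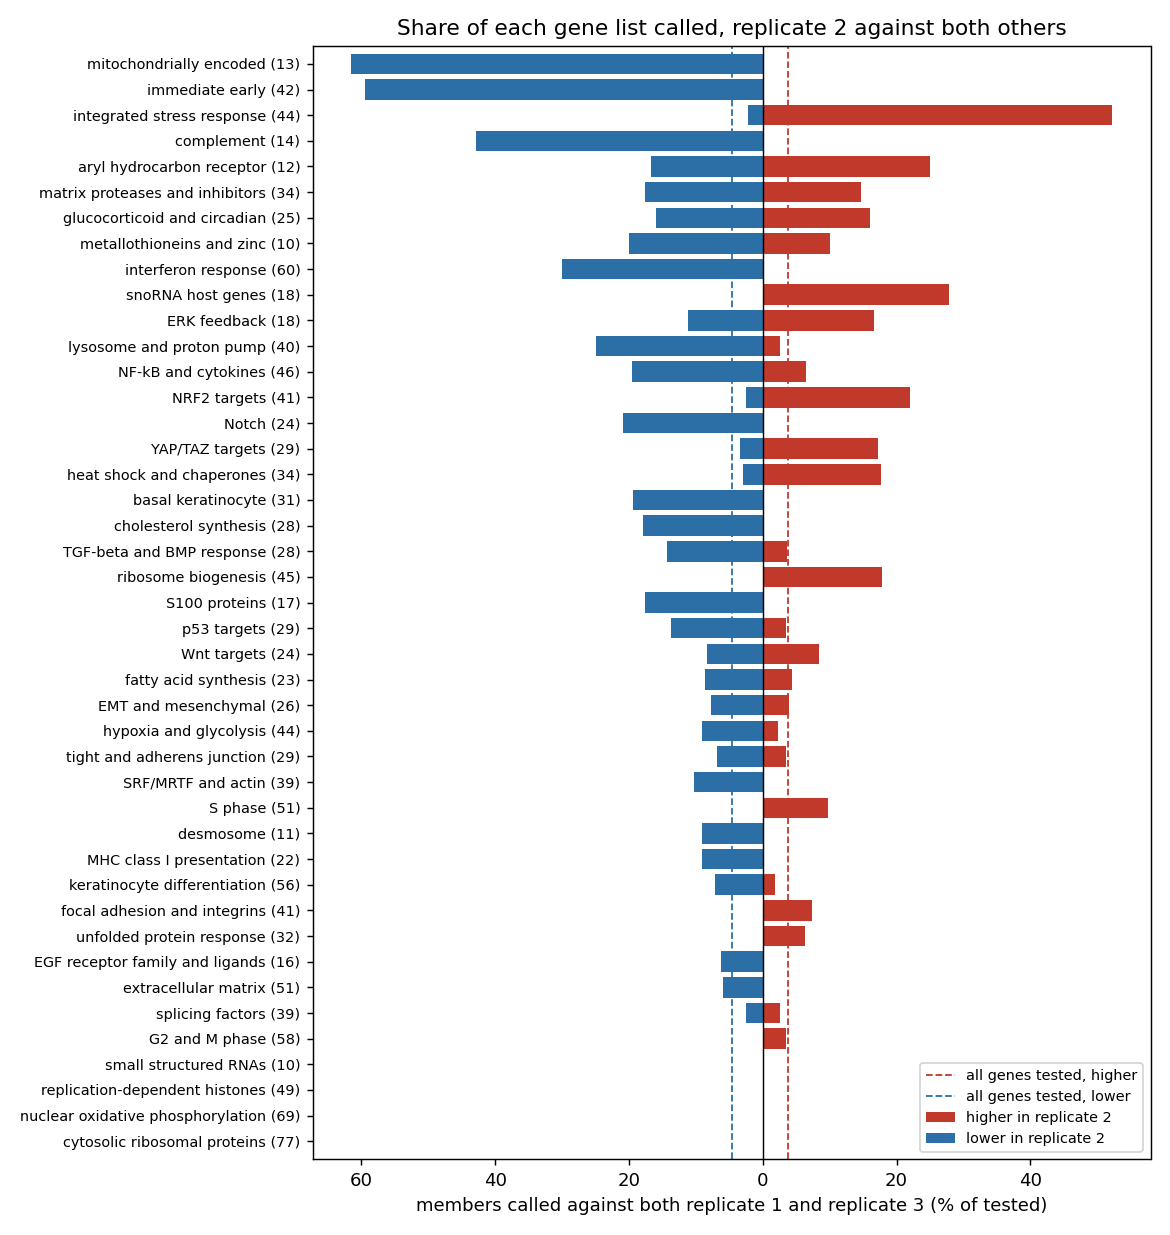
Share of each gene list's tested members (number in brackets) called higher (right) or lower (left) in replicate 2 against both replicate 1 and replicate 3; dashed lines mark the share over all genes tested, 3.72% higher and 4.57% lower. The immediate early and mitochondrially encoded lists reach furthest to the left and the integrated stress response to the right, and ribosomal proteins have 0 calls.

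Proteases and their inhibitors moved both ways: of 34 tested, 5 were higher and 6 lower against both numbers (3.72% and 4.57% over all genes). ADAM8, a membrane protease, had 159.9, 162, 129.9 and 217 CPM in replicate 2, against 65.9, 84.2, 67.5 and 113 CPM in replicate 1 and 62.7, 89.3, 62.7 and 85.8 CPM in replicate 3 (log2 fold change 1.09 ± 0.07, edgeR adjusted p = 2.65e-05). The protease inhibitor SERPINE2 rose by 0.77 ± 0.08. MMP10, stromelysin 2, had 38.5, 19.6, 18.9 and 13.4 CPM in replicate 2, against 459.8, 137, 223 and 85.7 CPM in replicate 1 and 82.7, 22.8, 41.6 and 27.8 CPM in replicate 3 (log2 fold change -2.02 ± 0.16, edgeR adjusted p = 6.52e-05). Its log2 fold change was -3.16 against replicate 1 and -0.88 against replicate 3, and MMP1, interstitial collagenase, was called against replicate 1 (-1.83) but not against replicate 3 (-0.41, edgeR adjusted p = 0.0689). The count of 5 was 3 without LPA-to-FAKi replicate 2, stiff-to-soft replicate 2 or the replicate 3 library of soft-to-soft, stiff-to-soft or LPA-to-FAKi.

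The receptor AHR, which binds aromatic ligands, and its target CYP1A1 moved in opposite directions. AHR had 180.5, 182, 222 and 129 CPM in replicate 2, against 443, 362, 486 and 182 CPM in replicate 1 and 486, 382, 439.6 and 351 CPM in replicate 3 (log2 fold change -1.12 ± 0.13, edgeR adjusted p = 0.000367). Its target CYP1A1, a cytochrome P450, had 17.8, 18.3, 23.3 and 39.2 CPM in replicate 2, against 15.3, 11.7, 9.04 and 30.1 CPM in replicate 1 and 6.31, 6.17, 4.21 and 23.3 CPM in replicate 3 (log2 fold change 1.12 ± 0.18, edgeR adjusted p = 0.00198). LPA-to-FAKi was the lowest condition for AHR and the highest for CYP1A1 under every replicate number. TIPARP, a target that represses the receptor, fell (-0.48 ± 0.06). Of the 12 genes of this list, 3 were higher (1 to 4 over the same alternatives) and 2 lower against both. Over all genes these shares were 3.72% and 4.57%. The 3 were 1 without replicate 1 or replicate 2 of stiff-to-soft or of LPA-to-soft.

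In the circadian clock, CLOCK and its partners drive transcription that PER and CRY proteins and BHLHE40 repress, and NR1D1 and NR1D2 are further repressors of the clock. Of 25 circadian and glucocorticoid genes, 4 were higher and 4 lower against both numbers (3.72% and 4.57% over all genes). These counts were 1 and 1 without soft-to-soft replicates 1 and 2. With 1 library left out, the 4 higher were 1 without LPA-to-FAKi replicate 2 or replicate 1 of LPA-to-soft, and 2 without replicate 1 or 2 of soft-to-soft, replicate 2 of LPA-to-soft or replicate 3 of LPA-to-FAKi. The 4 lower were 1 without replicate 1 or 2 of soft-to-soft or of LPA-to-soft, and 2 without LPA-to-FAKi replicate 2. With all LPA-to-soft libraries left out 0 were higher and 1 lower. BHLHE40 had 123, 157, 138 and 125 CPM in replicate 2, against 395, 226, 426 and 199 CPM in replicate 1 and 428, 298, 340.03 and 319 CPM in replicate 3 (log2 fold change -1.23 ± 0.17, edgeR adjusted p = 0.000838). NR1D1 (0.62 ± 0.09), NR1D2 (0.36 ± 0.07) and CLOCK (0.36 ± 0.07) rose. PER1, PER2, PER3, CRY1, CRY2 and ARNTL did not pass the test against the mean of both numbers.

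**Figure D5:**
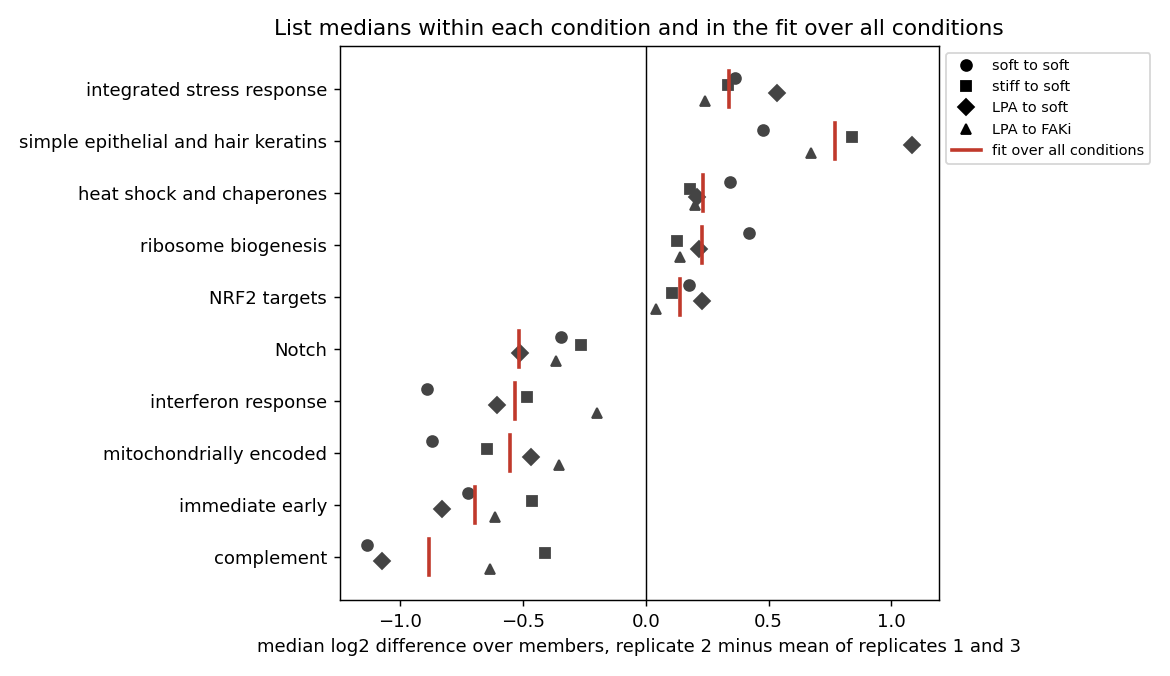
Median log2 difference over each list's members, replicate 2 minus the mean of replicates 1 and 3, within each of the 4 conditions (shapes, 1 library per number) and in the fit over all conditions (vertical lines). The 10 lists shown keep their sign in all 4 conditions. The basal keratinocyte and keratinocyte differentiation lists, not shown, do not, keratinocyte differentiation having 0.25 in soft-to-soft, -0.59 in stiff-to-soft, -0.24 in LPA-to-soft and -0.23 in LPA-to-FAKi.

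By chromosome, medians over genes lay between -0.02 and 0.05 for the 22 autosomes and X, and Spearman's rho of the fold change across genes was 0.01 with transcript length and -0.01 with GC content, genes not being independent replicates. Against replicate 1 alone the rhos were -0.04 and -0.06, and against replicate 3 alone 0.06 and 0.06.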

How the data were processed

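RNA of 12 Cal27 libraries was extracted with RNeasy columns and prepared with a TruSeq Stranded kit, per the labels' protocols. The deposited table holds whole-number read counts per gene symbol for all 12 libraries, with 0 columns that match no sample. Per the submitters' processing notes, the build was hg19 and the tools included STAR, HTSeq, cutadapt, FastQC and DESeq2. For their order, versions, annotation and strand setting the sources used here give nothing, so reads of overlapping genes on opposite strands cannot be told apart. A deposited table of normalized log2 values was not used. Of 25382 symbols, 5880 had no count in any library, and 28 turned into dates (0.178% of counts) and 4 repeated lines are not named.

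Counts were fitted in edgeR 4.0.16 (R 4.3.3, limma 3.58.1) with filterByExpr, TMM scaling, condition as a block and replicate number as a factor of 3 levels, and tested by quasi-likelihood F tests with Benjamini-Hochberg adjustment over 15437 genes at 0.05. A gene is called against both where it passes in the mean comparison and against each number, in 1 direction. The fit was also run on simulated counts, whose outcome is not given here. The alternatives included DESeq2 1.42.0, other scalings and filters, and each library left out. Genes were named as the 12 furthest from both numbers in each direction, outside the range of the other 8 and at 1 CPM or more, and as up to 6 members with the smallest adjusted p per list, with PTK2 and FN1. FOS, JUN, JUNB, JUND, ASNS, ATF4, DDIT3, PPP1R15A, ATF3, CSF2, AXL and ETV4, and other members named as exceptions, were added after their values were seen. The libraries set apart, the gene lists and their members were chosen with earlier results of these data known. Lists are described by counts and medians, with no test of a list. The 2 deposited soft-to-soft libraries with unlike low counts were kept, and results are also given without them. A few results are not reported here.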

Additional observations from a re-analysis of the deposited data

Results flagged for a closer look

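In each group of libraries, the value furthest from the rest was compared with the whole range by Dixon's test, for 274 groups of 4 or 8 libraries, and 17 stood apart. Chance flags about 1 in 20 such groups. Among the 8 libraries of replicates 1 and 3, LPA-to-FAKi replicate 1 stood apart for MIR100HG at 1.95 CPM, ETV5 at 15.2 CPM, CCND1 at 548 CPM and AHR at 182 CPM, in each case on the side of replicate 2. Soft-to-soft replicate 1 stood apart for MMP12 at 24.1 CPM and MMP10 at 460 CPM.

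Among the 4 replicate 2 libraries, soft-to-soft was apart and highest for BTG2 at 32.2 CPM, FOSB at 284 CPM, IFI27 at 89.4 CPM, MMP1 at 38.9 CPM and SERPINB3 at 13.2 CPM. Stiff-to-soft was apart and highest for LOXL4 at 15.2 CPM and HMOX1 at 31.9 CPM. LPA-to-soft was apart for CTSZ at 95.4 CPM. LPA-to-FAKi was apart and lowest for EPSTI1 at 4.37 CPM and CTSC at 150 CPM, and it had the highest mitochondrially encoded share, 5.05% of counts.

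DDIT3 moved in opposite directions between conditions: replicate 2 minus the mean of the other numbers was 0.35 in stiff-to-soft, 0.43 in LPA-to-soft and 0.11 in LPA-to-FAKi, against -0.29 in soft-to-soft, on the log2 scale. This difference between conditions was not tested.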

How the results depend on the processing

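No paired analysis was possible because the replicate number is itself what was compared, with condition as the block. The 4204 genes called against the mean of the other numbers were 1809 to 4741 with 1 library left out, the lowest without LPA-to-soft replicate 2. Against replicate 1 the 5557 were 3929 to 5469, against replicate 3 the 3660 were 1901 to 4041, and called against both the 1280 were 590 to 1579. With all soft-to-soft libraries left out these counts were 2104 (mean), 2054 (replicate 3) and 631 (both). With all LPA-to-soft libraries left out they were 1551 (mean), 3259 (replicate 1), 1904 (replicate 3) and 511 (both). With all LPA-to-FAKi libraries left out 2360 genes were called against replicate 3. Without soft-to-soft replicates 1 and 2 the counts were 2029 (mean), 2028 (replicate 3) and 634 (both), and without the condition block 803 were called against both. A test against a log2 fold change of 0.5 called 198 genes, 45 higher and 153 lower. A fit with libraries left out also holds fewer samples, and the part this has in the changed counts was not tested.

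Upper quartile scaling gave 1626 higher and 2264 lower genes against the mean, and 432 and 831 against both. The length and GC correction gave 3541 and 1595, and 865 and 578. The median over all genes was -0.03 under the first and 0.07 under the second. The test against 0.5 was run for counts alone, and called 21 of the 24 genes furthest from both numbers. With the counts of the 10 libraries with mostly even low counts halved, 1312 genes were called against both. Over the 27 other alternatives, of 3610 values of the genes named, 3594 kept their direction and their side of the threshold, 12 no longer passed, 3 newly passed and 1 reversed, PTK2, at 0.0083 with the length and GC correction against -0.05 as reported, neither past the threshold. The cause was not tested. Of the 131 named genes called, 123 were called under each of these in which they were tested. The others were C3, MMP1, CYP1A1 and IER3 without the condition block, and CP, C3, CDT1, GAS5 and VWF with all LPA-to-soft libraries left out. C3, GAS5 and VWF were also lost without LPA-to-soft replicate 2. The replicate number is confounded with any batch that follows it, and 4 libraries per number limit every p-value.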

Other observations

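The cell cycle inhibitor CDKN1A (p21) had 82.6, 80.6, 90.3 and 100.3 CPM in replicate 2, against 243, 145, 197 and 171 CPM in replicate 1 and 151, 102, 121 and 129 CPM in replicate 3 (log2 fold change -0.78 ± 0.09, edgeR adjusted p = 0.000485). CDKN2B (p15), another, had 15.4, 14.8, 15.3 and 14.9 CPM in replicate 2, against 43.9, 29.9, 39.4 and 31.98 CPM in replicate 1 and 24.8, 20.7, 20.97 and 17.2 CPM in replicate 3 (log2 fold change -0.85 ± 0.08, edgeR adjusted p = 0.000136). Both were below the other 8 libraries. ORC1 (0.38 ± 0.08) and CDT1 (0.36 ± 0.07), which license replication origins, were higher against both numbers, CDT1 without a call when all LPA-to-soft libraries were left out. Of 51 S phase genes tested, 25 rose and 0 fell against the mean (14.6% and 12.6% over all genes). Against both, 5 were higher (3.72% over all genes). The 5 were 0 without soft-to-soft replicate 2 or LPA-to-FAKi replicate 3, and 0 without soft-to-soft replicates 1 and 2. They were 1 without LPA-to-soft replicate 2 or replicate 3 of soft-to-soft or of stiff-to-soft, and 11 without stiff-to-soft replicate 1. Of 58 G2 and M phase genes tested, 2 were higher and 0 lower against both (3.72% and 4.57% over all genes). BMP4, a secreted growth factor (0.89 ± 0.14), was higher and ID1, a target of BMP signalling (-0.76 ± 0.11), lower. Of 28 TGF-beta and BMP response genes tested, 1 (BMP4) was higher against both numbers (3.72% over all genes). The 4 lower ones were ID1, BMP2, BHLHE40 and ATOH8 (4.57% over all genes), and 20 of the 28 did not pass the test against the mean.

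The receptor tyrosine kinase AXL, a YAP target, had 186, 165, 134 and 169.9 CPM in replicate 2, against 63.7, 95.7, 77.4 and 111 CPM in replicate 1 and 68.4, 97.6, 89.8 and 92.2 CPM in replicate 3 (log2 fold change 0.93 ± 0.11, edgeR adjusted p = 0.000504), and the YAP partner TEAD1 rose by 0.44 ± 0.05. Of the 29 genes of the YAP/TAZ list, 5 were higher and 1 lower against both numbers (3.72% and 4.57% over all genes). Against the mean of both, 9 rose (14.6% over all genes), 4 fell (12.6%) and 16 did not pass the test, with a list median of 0.09. SNAI2 (Slug), a repressor of epithelial genes, fell, with a log2 fold change of -0.94 ± 0.07. The cytokine CSF2 (GM-CSF) had 23.5, 68.3, 35.99 and 58.7 CPM in replicate 2, against 11.5, 26.2, 17.6 and 30.3 CPM in replicate 1 and 12.8, 30.3, 16.4 and 21.4 CPM in replicate 3 (log2 fold change 1.13 ± 0.09, edgeR adjusted p = 6.02e-05), above both other numbers in every condition. IL36G, a cytokine of keratinocytes, was lower (-1.59 ± 0.23). NFKB2 (0.32 ± 0.05) and NFKBIE (0.39 ± 0.06) were higher. Of the 46 NF-kB and cytokine genes tested, 3 were higher and 9 lower against both numbers (3.72% and 4.57% over all genes). CSF2, NFKB2 and NFKBIE were the 3 higher. Without LPA-to-soft replicate 2 the counts were 1 higher and 4 lower. The list's median was -0.15. Among lysosomal genes, the protease CTSC (-0.88 ± 0.10), the acid glucosidase GAA (-0.63 ± 0.11) and the membrane protein GPNMB (-1.87 ± 0.25) were lower and the protease CTSZ (0.35 ± 0.04) was higher. SREBF1 (-0.85 ± 0.11) and SREBF2 (-0.65 ± 0.11), which drive lipid and sterol synthesis, and their target SCD (-1.22 ± 0.22) were lower against both numbers. Of 28 cholesterol synthesis genes tested, 0 were higher and 5 lower against both (3.72% and 4.57% over all genes). The 5 were 0 without LPA-to-soft replicate 2. Against replicate 1 alone 5 of the 28 were lower (17% over all genes), and against replicate 3 alone 22 (11.6%). Of 23 fatty acid synthesis genes tested, 1 (ELOVL6) was higher and 2 lower against both.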
